A study of Homo sapiens with 33 samples.

Results

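The AP-1 transcription factor subunits described here are 10 genes, FOS, FOSB, FOSL1, FOSL2, JUN, JUNB, JUND, ATF3, BATF3 and MAFF, taken by symbol from the 56470 gene symbols of a bulk RNA sequencing table. The table holds 33 libraries of SCC1, SCC6 and SCC25, established head and neck squamous cell carcinoma (HNSCC) cell lines that are sensitive to cetuximab, an antibody that blocks the epidermal growth factor receptor (EGFR). Cells were given either 100 nM cetuximab (CTX) or PBS, the untreated control, with daily changes of medium in both arms. Each line has 6 PBS libraries, of days 0 to 5, and 5 CTX libraries, labelled day 1 to day 5 in SCC1 and SCC25. In SCC6 the labels give day 2 for 2 CTX libraries and day 1 for none, and they are written 2a and 2b below, in the order of the table. Nothing in the labels separates cultures within a day, so the 5 days of a treatment stand in for replicates, and each line is a single cultured population grown without other cell types.

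AP-1 is a family of dimeric transcription factors that bind DNA through basic leucine zipper (bZIP) domains. FOS proteins must pair with a JUN protein, whereas JUN proteins can also pair with each other or with ATF proteins. Many members are immediate early genes, transcribed within minutes of growth factor signalling through RAS and ERK, and ERK also phosphorylates and stabilises FOS and FOSL1 protein. In squamous cells AP-1 is known for its part in proliferation, keratinocyte differentiation and the expression of matrix proteases. ATF3 is a stress-inducible repressor or activator of the same superfamily, BATF3 lacks a transactivation domain, and MAFF is a small MAF protein that pairs with CNC factors such as NFE2L2 as well as with FOS.

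Levels are given as CPM, the count of a gene relative to the total of its library, on the usual counts-per-million scale after TMM scaling, and changes as log2 fold changes of CTX over PBS with their standard error (SE), from edgeR's quasi-likelihood test over all genes. A gene is called when its Benjamini-Hochberg adjusted p over all tested genes is under 0.05. Library totals ranged from 28508539 to 80727185 counts. The libraries were run on 5 flow cells, and treatment and flow cell overlap only in part. In SCC1 the PBS library of day 5 shared a flow cell with the CTX libraries and the other PBS libraries did not. In SCC25 all PBS libraries and CTX days 1 and 2 shared one, with CTX days 3 to 5 on another. In SCC6, PBS days 0 and 1 stood on a flow cell apart from PBS days 2 to 5 and CTX 2a, 2b and 3, and CTX days 4 and 5 were alone on another. The 8 epithelial markers were present in every group, at a summed 1425 CPM or more. With CTX, SCC1 had 6 of the 8 called higher and 1 lower. Its sum was 1828 to 3006 CPM with PBS and 6546 to 10246 CPM with CTX. SCC6 had 3 higher and 2 lower, and SCC25 had 2 higher and 1 lower. Beside this and the other marker lists, 22.7% of all tested genes were called higher for SCC1, 15.6% for SCC6 and 8.8% for SCC25. The shares called lower were 22.1%, 14.6% and 9.5%. The 7 immune markers summed to 18.7 to 53.4 CPM with PBS and 8.35 to 16.7 CPM with CTX in SCC1, 16.6 to 19.0 and 4.01 to 7.25 CPM in SCC6, and 166 to 233 and 146 to 175 CPM in SCC25. Among them CD68 reached 231 CPM and was called lower with CTX in each line, CD14 reached 7.15 CPM, the leukocyte marker PTPRC did not exceed 0.301 CPM and the T cell marker CD3E did not exceed 0.100 CPM. Endothelial markers were not called in any line and summed to at most 18.5 CPM. Of these, KDR reached 17.3 CPM, and CDH5 did not exceed 0.586 CPM. Fibroblast markers were called higher with CTX for 5 of 5 tested in SCC1, 2 of 3 in SCC6 and 5 of 9 in SCC25, where 1 more was called lower. Their summed level was 51.4 to 72.9 CPM with PBS and 96.3 to 221 CPM with CTX in SCC1, 3.44 to 5.33 and 10.1 to 116 CPM in SCC6, and 178 to 227 and 292 to 459 CPM in SCC25. The part of these markers in the changes below was not tested.

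Promoter windows of 300 bases, 250 before and 50 after the start of transcription, were found for 8 of the 10 members in RefSeq on GRCh38.p14, with a second window for ATF3 and MAFF. The 4 below are shown because FOS and MAFF were lower and FOSL2 higher with CTX in each line, and FOSB was lower in SCC6 and SCC25. Capitals mark the letters TGANTCA (the AP-1 site), TGACGTCA (the cAMP response element, which AP-1 dimers with ATF proteins also bind) and TATAAA (the TATA box), searched on both strands. They are FOS on chr14:75278578-75278877 (plus strand), FOSB on chr19:45467746-45468045 (plus strand), FOSL2 on chr2:28392608-28392907 (plus strand) and MAFF on chr22:38201744-38202043 (plus strand).
FOS: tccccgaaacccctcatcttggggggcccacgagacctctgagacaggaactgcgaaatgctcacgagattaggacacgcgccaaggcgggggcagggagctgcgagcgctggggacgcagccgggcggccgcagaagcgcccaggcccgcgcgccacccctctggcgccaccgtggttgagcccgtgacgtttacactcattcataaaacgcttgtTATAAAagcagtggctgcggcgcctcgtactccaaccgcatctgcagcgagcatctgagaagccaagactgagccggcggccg
FOSB: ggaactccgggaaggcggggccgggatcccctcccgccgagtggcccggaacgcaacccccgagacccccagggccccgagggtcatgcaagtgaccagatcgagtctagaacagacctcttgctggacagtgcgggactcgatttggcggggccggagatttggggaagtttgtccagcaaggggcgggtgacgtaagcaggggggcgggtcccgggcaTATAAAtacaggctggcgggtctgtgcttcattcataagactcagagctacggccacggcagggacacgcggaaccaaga
FOSL2: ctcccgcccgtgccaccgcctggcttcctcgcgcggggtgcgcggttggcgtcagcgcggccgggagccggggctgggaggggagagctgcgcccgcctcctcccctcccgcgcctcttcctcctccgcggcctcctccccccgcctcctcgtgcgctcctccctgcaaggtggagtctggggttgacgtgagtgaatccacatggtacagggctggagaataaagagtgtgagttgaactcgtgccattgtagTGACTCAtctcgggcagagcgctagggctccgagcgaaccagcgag
MAFF: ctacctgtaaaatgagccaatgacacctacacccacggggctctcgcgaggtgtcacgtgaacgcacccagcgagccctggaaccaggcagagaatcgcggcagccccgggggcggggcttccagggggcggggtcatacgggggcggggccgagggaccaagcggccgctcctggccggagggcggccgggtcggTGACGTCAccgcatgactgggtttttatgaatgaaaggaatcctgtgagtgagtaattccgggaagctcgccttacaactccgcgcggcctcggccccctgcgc
The letters TATAAA began 33 bases before the start in FOS, 30 in FOSB and 31 in JUNB, and 230 before the start in 1 window of ATF3. They were thus found in 4 of the 10 windows, against 11.5% of the 35116 promoter windows in the reference. TGANTCA was found in FOSL2 only, 4 bases after the start, and in 7.71% of all windows. TGACGTCA was found 54 bases before the start in MAFF and 200 bases before it in JUND, and in 1.85% of all windows. The CArG box, which serum response factor binds, was in none of the 10 windows and in 1.29% of all. Sequence further than 250 bases before the start was not searched, so a CArG box there would not have been found. These matches describe the letters and not binding.

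The first question was which members changed while EGFR was blocked over days 1 to 5. FOS, FOSL1 and MAFF were lower and FOSL2 was higher with CTX in all 3 lines, as 3.91% and 3.08% of the 15763 genes tested in each line were, and no other member was called in each line. JUN was lower in SCC1 and higher in SCC6, FOSB was lower in SCC6 and SCC25, BATF3 was lower in SCC1 and SCC25, ATF3 was higher in SCC1 and SCC6, JUND was higher in SCC6, and JUNB was not called in any line. All 10 members passed the filter on low counts in each line. In SCC1, 2 members were called higher and 5 lower, where 44.8% of all tested genes were called, 22.7% higher and 22.1% lower. In SCC6 these were 4 and 4 members, against 30.1% of genes, 15.6% higher and 14.6% lower. In SCC25, 1 member was called higher and 5 lower, against 18.3% of genes, 8.8% higher and 9.5% lower. Scaling by total counts without TMM left 6 members called in SCC25. It moved the split of all called genes there from 1681 higher and 1815 lower to 2261 and 1217. Removal of each library's GC trend moved the SCC25 split to 2132 and 3671, and that of SCC6 from 2708 and 2530 to 2964 and 4178. The GC fit kept only genes with a known GC content, 15989 in place of 19101 in SCC25 and 14871 in place of 17387 in SCC6. The PBS and CTX libraries of days 1 to 5 did not overlap for 5 members in SCC1, 4 in SCC6 and 4 in SCC25, while 31.3%, 19.1% and 14.8% of all tested genes showed no overlap.

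**Figure D1:**
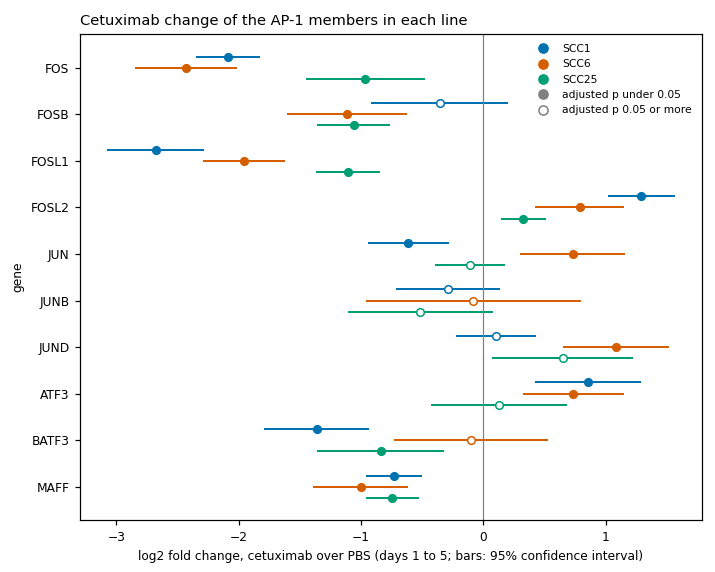
Log2 fold change of each AP-1 member, CTX over PBS, on days 1 to 5 in SCC1, SCC6 and SCC25. Points are edgeR estimates from 5 libraries per treatment, bars are 95% confidence intervals, and filled points have an adjusted p under 0.05. FOS, FOSL1 and MAFF lie left of 0 and FOSL2 lies right of 0 in every line, whereas JUN lies on opposite sides of 0 in SCC1 (-0.61) and SCC6 (0.73).

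FOSL1 encodes FRA-1, the FOS family member most tied to ERK activity and to invasion in squamous carcinoma. It lies on chromosome 11 (65659520 to 65668044 on GRCh37, minus strand). In SCC1 its level on days 1 to 5 was 151, 209, 233, 228 and 138 CPM with PBS and 31.1, 37.8, 30.8, 28.4 and 20.6 CPM with CTX. In SCC6 it was 197, 173, 151, 171 and 171 CPM with PBS, against 42.5 and 54.4 CPM in 2a and 2b and 54.0, 43.4 and 30.6 CPM on days 3 to 5 with CTX. The SCC25 libraries held 259, 322, 286, 288 and 275 CPM with PBS and 156, 155, 98.6, 122 and 134 CPM with CTX. Every CTX library was below every PBS library of the same line. On the log2 scale FOSL1 changed by -2.68 (SE 0.18, adjusted p = 7.82e-07) in SCC1, -1.96 (SE 0.15, adjusted p = 9.72e-06) in SCC6 and -1.11 (SE 0.12, adjusted p = 0.000151) in SCC25. Set against the PBS library of its day, CTX left 12.5% to 20.6% of FOSL1 in SCC1, 17.9% to 35.9% in SCC6 and 34.5% to 60.2% in SCC25. With flow cell as a covariate, which compares within flow cells, the log2 changes were -2.20, -1.74 and -0.88. In SCC1 PBS day 5 is the only PBS library in that comparison. In SCC6 only CTX 2a, 2b and 3 enter it, and in SCC25 only CTX days 1 and 2. The same limits hold for the changes of other members within flow cells below.

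FOS, the first of the family to be named and a short-lived immediate early factor, lies on chromosome 14 (75745529 to 75748933, plus strand). Its PBS libraries of days 1 to 5 held 8.42, 9.97, 8.0, 8.88 and 6.62 CPM in SCC1, and its CTX libraries 2.0, 1.89, 2.03, 1.91 and 1.95 CPM. In SCC6 the PBS levels were 10.3, 13.0, 11.6, 19.2 and 17.1 CPM, and the CTX levels were 2.52 (2a), 2.69 (2b), 2.29, 2.83 and 2.97 CPM. In SCC25 they were 7.13, 11.3, 9.78, 14.1 and 14.8 CPM with PBS and 3.58, 6.38, 5.09, 7.19 and 7.06 CPM with CTX. The treatments did not overlap in SCC1 and SCC6, whereas in SCC25 the CTX libraries of days 4 and 5 reached the level of PBS day 1 or came close to it. FOS changed by -2.09 (SE 0.12, adjusted p = 3.74e-07) in SCC1, -2.43 (SE 0.19, adjusted p = 9.74e-06) in SCC6 and -0.97 (SE 0.22, adjusted p = 0.0111) in SCC25 on the log2 scale. Each CTX library of SCC25 lay below the PBS library of its own day, at 47.7% to 56.5% of it. Within flow cells the changes were -1.74, -2.62 and -1.19.

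FOSB, another immediate early member, lies on chromosome 19 (45971253 to 45978437, plus strand) and was at the lower end of the family in level. In SCC6 it ran at 5.3, 5.2, 6.95, 6.98 and 5.42 CPM with PBS and 1.89, 2.23, 2.21, 3.66 and 3.86 CPM with CTX. In SCC25 it ran at 7.31, 8.84, 6.5, 7.78 and 7.66 CPM with PBS and 4.30, 3.44, 2.70, 3.59 and 4.24 CPM with CTX. All CTX libraries of these lines lay below all PBS libraries. The log2 change was -1.11 (SE 0.22, adjusted p = 0.00302) in SCC6 and -1.06 (SE 0.13, adjusted p = 0.000386) in SCC25. In SCC1, PBS libraries held 0.903 to 1.37 CPM and CTX libraries 0.506 to 1.16 CPM, which overlap, and the change of -0.36 (SE 0.25, 95% interval -0.91 to 0.19, adjusted p = 0.271) did not pass the test.

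FOSL2 encodes FRA-2, which pairs with JUN proteins as FRA-1 does, and lies on chromosome 2 (28615315 to 28640184, plus strand). It rose in each line. In SCC1 it stood at 72.6, 56.3, 60.0, 60.8 and 72.5 CPM with PBS and at 131, 131, 150, 174 and 197 CPM with CTX, without overlap. In SCC6 it stood at 97.9, 96.3, 110, 131 and 160 CPM with PBS and at 151 (2a), 195 (2b), 207, 250 and 236 CPM with CTX, where only 2a fell within the PBS range. In SCC25 the levels were 102, 109, 119, 126 and 141 CPM with PBS and 150, 160, 138, 151 and 153 CPM with CTX, and CTX day 3 fell just below PBS day 5. The log2 change was 1.29 (SE 0.12, adjusted p = 6.29e-06) in SCC1, 0.79 (SE 0.16, adjusted p = 0.00409) in SCC6 and 0.33 (SE 0.08, adjusted p = 0.0169) in SCC25. Every CTX library was above the PBS library of its day, in 5 of 5 libraries of each line. The SCC25 change missed the threshold without the PBS library of day 2 (0.30, adjusted p = 0.0501).

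**Figure D2:**
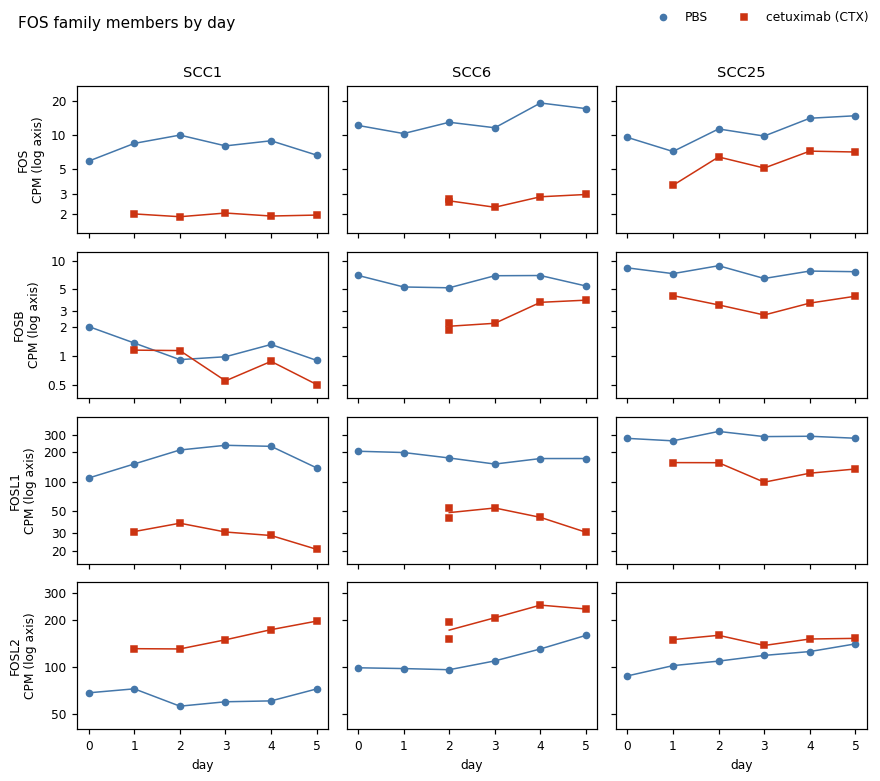
Level of FOS, FOSB, FOSL1 and FOSL2 in CPM (log axis) by day in each line, with PBS as circles and CTX as squares, 1 point per library. Lines join the days, and the 2 SCC6 CTX libraries labelled day 2 are joined at their mean. The CTX points of FOSL1 lie below all PBS points of their line, at no more than 37.8 CPM in SCC1, 54.4 in SCC6 and 156 in SCC25, and those of FOSL2 lie above the PBS point of their day.

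Because FOSL1 fell while FOSL2 rose, the makeup of the FOS family mRNA was compared per length, as CPM divided by the length of each gene's canonical transcript. This compares levels between genes only as far as those transcripts are the ones expressed. FOSL1 made up 88.5% ± 3.1 (SD, n = 5) of the family in SCC1 with PBS and 41.8% ± 8.9 with CTX, while FOSL2 went from 8.0% ± 2.7 to 55.5% ± 9.1. In SCC6 FOSL1 made up 79.6% ± 4.0 with PBS and 44.5% ± 8.4 with CTX, and FOSL2 13.9% ± 2.8 and 52.1% ± 7.8. In SCC25 FOSL1 kept the larger share, at 86.9% ± 1.8 and 74.6% ± 3.0, and FOSL2 went from 9.2% ± 1.2 to 21.7% ± 2.4. FOS and FOSB together stayed under 10% of the family in every library of days 1 to 5. The FOSL1 level per length was 7.48 to 15.3 times that of FOSL2 in SCC1 with PBS and 0.411 to 1.14 times with CTX. In SCC6 the same ratio was 4.23 to 7.93 with PBS and 0.513 to 1.11 with CTX, and in SCC25 it was 7.70 to 11.6 and 2.83 to 4.09. FOSL2 thus exceeded FOSL1 in 4 of the 5 CTX libraries of SCC1, in 2 of the 5 of SCC6, those of days 4 and 5, and in none of SCC25. The summed level of the 4 genes per length was 126 ± 25.5 CPM per kb with PBS and 41.9 ± 1.8 with CTX in SCC1, 128 ± 9.9 and 59.3 ± 6.9 in SCC6, and for SCC25 it was 193 ± 14.6 and 104 ± 15.2. Without the division by length, FOSL1 held 67.4% of the family in SCC25 with PBS and 45.1% with CTX, so that there FOSL2, at 51.6%, was the larger part with CTX.

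**Figure D3:**
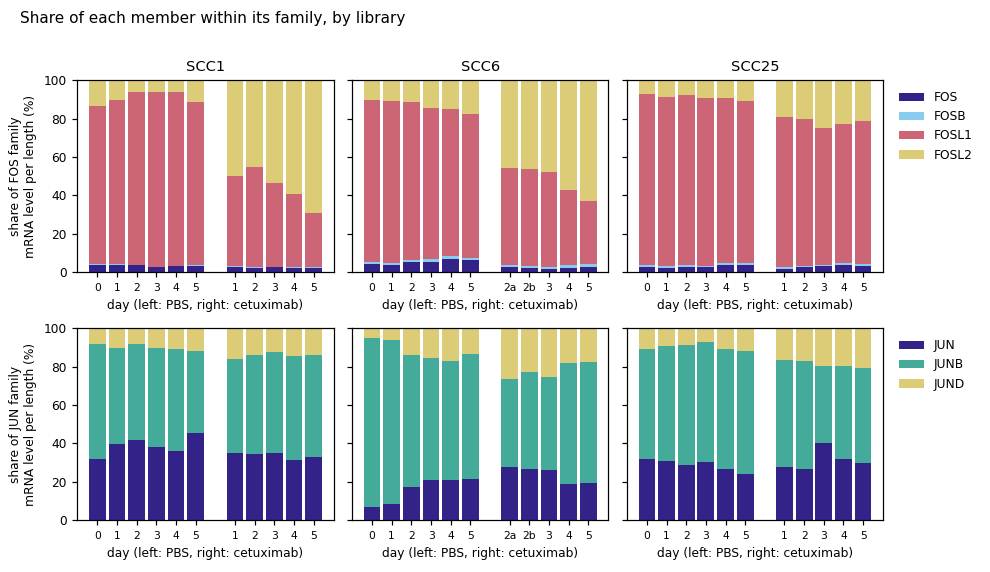
Share of each gene in the summed level per length of its family (%), 1 bar per library, for the FOS family (top) and the JUN family (bottom) in each line, PBS on the left and CTX on the right of each panel. With CTX the FOSL2 part fills 45.4% to 69.1% of the FOS family in SCC1 and 45.7% to 63.2% in SCC6.

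The JUN family did not move as a group. JUN, one of the JUN proteins that FOS proteins can pair with, lies on chromosome 1 (59242517 to 59249720, minus strand). In SCC1 it held 76.4, 118, 108, 100 and 91.5 CPM with PBS and 45.0, 67.9, 64.2, 59.1 and 84.3 CPM with CTX, lower on each day but overlapping as groups. In SCC6 it held 77.7, 69.3, 85.9, 113 and 111 CPM with PBS and 94.3 (2a), 152 (2b), 158, 208 and 154 CPM with CTX, of which only 2a lay within the PBS range. SCC25 ran from 77.3 to 117 CPM with PBS and from 64.8 to 105 CPM with CTX. The log2 change was -0.61 (SE 0.15, adjusted p = 0.00495) in SCC1, 0.73 (SE 0.19, adjusted p = 0.0144) in SCC6 and -0.11 (SE 0.13, 95% interval -0.39 to 0.17, adjusted p = 0.605) in SCC25. Within flow cells neither call held, at -0.50 (adjusted p = 0.182) in SCC1 and 0.49 (adjusted p = 0.0836) in SCC6. The SCC1 call was also lost with day 0 added to PBS (-0.47, adjusted p = 0.115).

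JUND, a widely expressed JUN protein with weaker activation than JUN, lies on chromosome 19 (18390504 to 18392432, minus strand), and JUNB, which can restrain JUN and is itself an immediate early gene, on the same chromosome (12902300 to 12904129, plus strand). In SCC6 JUND held 33.1, 32.7, 37.6, 53.8 and 40.1 CPM with PBS and 53.0 (2a), 77.7 (2b), 91.1, 117 and 84.4 CPM with CTX, where 2a fell below PBS day 4. Its change there was 1.08 (SE 0.20, adjusted p = 0.00179), higher in 5 of 5 libraries. JUND is the most GC-rich member, with 69.9% GC in its transcript, and when each library's trend with GC content was removed the SCC6 change became 0.53 (adjusted p = 0.122). In SCC25 it held 14.1, 17.4, 14.1, 24.7 and 34.1 CPM with PBS and 32.3, 39.1, 18.5, 35.2 and 38.9 CPM with CTX. The SCC25 change of 0.65 (SE 0.26, adjusted p = 0.104) was not called as fitted, and was called with day as a replicate block (0.69, adjusted p = 0.0141) and with the GC trend removed (0.85, adjusted p = 0.00912). It was also called without the PBS library of day 5 (0.91, adjusted p = 0.0183) or without the CTX library of day 3 (0.80, adjusted p = 0.0291). In SCC1 JUND ran from 11.7 to 17.8 CPM with PBS and from 12.3 to 20.9 CPM with CTX (0.10, SE 0.15, adjusted p = 0.610).

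JUNB was not called in any line, with log2 changes of -0.29 (95% interval -0.71 to 0.13, adjusted p = 0.241) in SCC1, -0.08 (-0.95 to 0.79, adjusted p = 0.899) in SCC6 and -0.51 (-1.10 to 0.07, adjusted p = 0.208) in SCC25. With PBS it held, in SCC6, 543 and 457 CPM on days 0 and 1, which shared a flow cell, and 154, 148, 188 and 189 CPM on days 2 to 5. With CTX it held 87.6 (2a), 161 (2b), 164, 392 and 283 CPM, the last 2 on a flow cell of their own. Without the PBS library of day 1 the SCC6 change was 0.34 (adjusted p = 0.462). MAFF showed the same step in PBS, at 139 and 147 CPM on days 0 and 1 against 86.0 to 94.2 CPM later. In SCC25 the CTX library of day 3 was the lowest for JUNB, at 36.3 CPM against 83.8 to 124 CPM on the other days, and with the GC trend removed the SCC25 change was -0.44 (adjusted p = 0.0338).

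**Figure D4:**
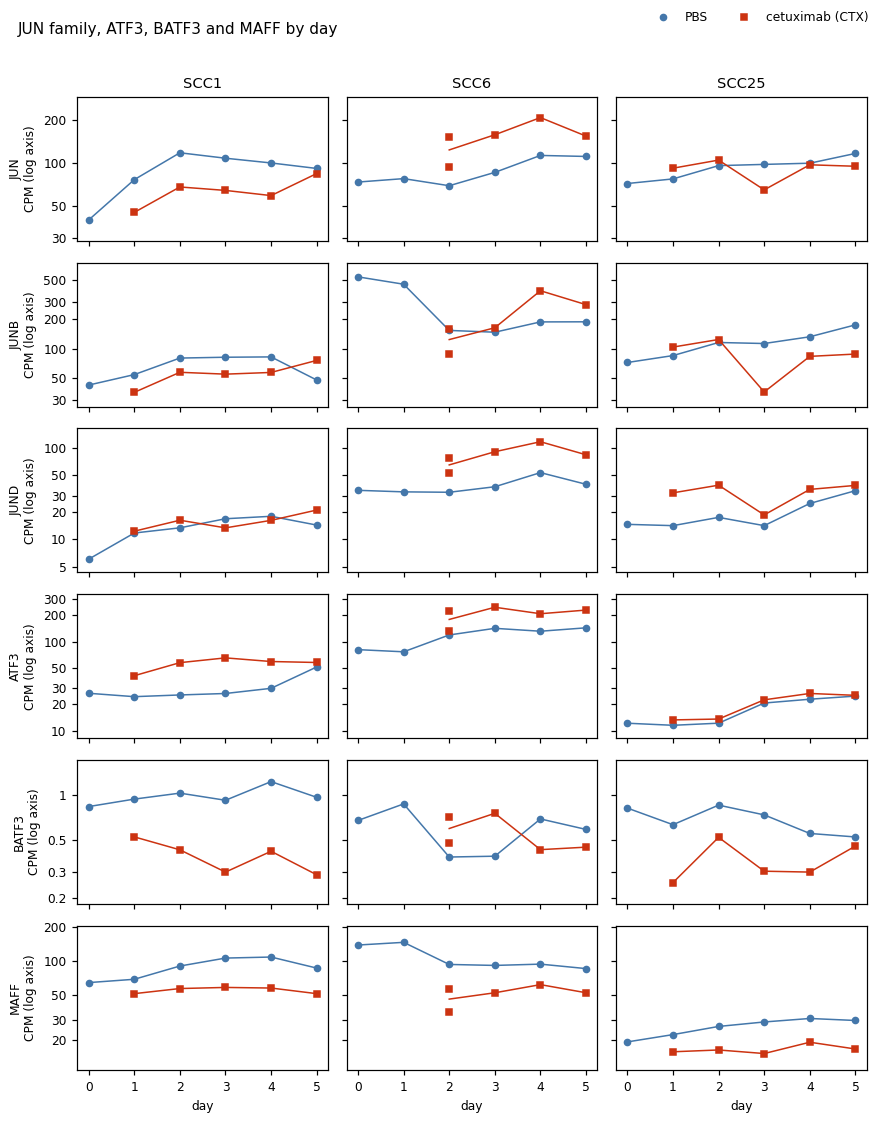
Level of JUN, JUNB, JUND, ATF3, BATF3 and MAFF in CPM (log axis) by day in each line, drawn as in the plot of the FOS family by day. JUNB in SCC6 falls from 457 CPM on PBS day 1 to 154 CPM on day 2, and MAFF with CTX lies below PBS on every day.

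ATF3, a stress-inducible bZIP factor on chromosome 1 (212738676 to 212794119, plus strand), held 24.1, 25.2, 26.2, 29.9 and 51.9 CPM in SCC1 with PBS and 41.4, 58.0, 65.6, 59.7 and 58.2 CPM with CTX. The CTX libraries lay above PBS days 1 to 4, and that of CTX day 1 lay below PBS day 5. The change of 0.86 (SE 0.20, adjusted p = 0.00343) was 0.14 (adjusted p = 0.634) within flow cells, where PBS day 5 is the only PBS library beside the CTX libraries. In SCC6 ATF3 held 76.8, 119, 141, 131 and 143 CPM with PBS and 131 (2a), 222 (2b), 242, 205 and 225 CPM with CTX. Its change of 0.74 (SE 0.19, adjusted p = 0.0115) was 0.56 (adjusted p = 0.0225) within flow cells. In SCC25 it ran from 11.5 to 24.5 CPM with PBS and from 13.2 to 26.2 CPM with CTX, a change of 0.13 (SE 0.25, 95% interval -0.42 to 0.68, adjusted p = 0.767).

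MAFF, on chromosome 22 (38596774 to 38612514, plus strand), fell in each line without overlap between treatments. It held 69.1 to 109 CPM with PBS and 51.5 to 58.5 CPM with CTX in SCC1, 86.0 to 147 and 35.3 to 62.0 CPM in SCC6, and 22.3 to 31.0 and 15.1 to 19.1 CPM in SCC25. Its log2 change was -0.73 (SE 0.10, adjusted p = 0.000114), -1.0 (SE 0.18, adjusted p = 0.00148) and -0.74 (SE 0.10, adjusted p = 0.000484) in that order. BATF3, best known from dendritic cells, lies on chromosome 1 (212859759 to 212873182, minus strand) and stayed at or under 1.24 CPM in every library. In SCC1 it fell from 0.924 to 1.24 CPM with PBS to 0.289 to 0.522 CPM with CTX (-1.36, SE 0.20, adjusted p = 0.000123). In SCC25 it fell from 0.521 to 0.856 CPM to 0.256 to 0.518 CPM (-0.84, SE 0.24, adjusted p = 0.0281), a call that was lost within flow cells (-0.76, adjusted p = 0.183), without a filter on low counts (adjusted p = 0.0539) and without any of 6 single libraries, PBS days 1, 2 and 3 and CTX days 1, 3 and 4. In SCC6 it ran from 0.381 to 0.873 CPM and from 0.428 to 0.754 CPM (-0.10, SE 0.29, adjusted p = 0.826).

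A fit with all 30 libraries of days 1 to 5 tested whether the change itself differed between lines. The change of FOS, FOSL1, FOSL2, JUN and BATF3 differed between the lines, 5 of 10 members where 26.1% of all genes did. FOSL1 fell most in SCC1 and least in SCC25, with a log2 difference of 0.74 (SE 0.23, adjusted p = 0.0187) between SCC6 and SCC1, 1.58 (SE 0.23, adjusted p = 1.59e-05) between SCC25 and SCC1, and 0.84 (SE 0.22, adjusted p = 0.00929) between SCC25 and SCC6. FOS fell less in SCC25 than in SCC1 (difference 1.14, SE 0.27, adjusted p = 0.00536) and SCC6 (1.45, SE 0.26, adjusted p = 0.000255), and its change in SCC6 and SCC1 differed by -0.32 (95% interval -0.87 to 0.24, adjusted p = 0.464). JUN changed in opposite directions in SCC6 and SCC1, 1.37 apart (SE 0.25, adjusted p = 0.000157). FOSL2 rose less in SCC25 than in SCC1 (-0.95, SE 0.19, adjusted p = 0.00129). In single pairs 4 members differed between SCC6 and SCC1, 3 between SCC25 and SCC1 and 3 between SCC25 and SCC6, where 19.3%, 8.52% and 17.5% of genes did. With day as a replicate block 7 members differed, among them JUND (adjusted p = 0.00348) and ATF3 (adjusted p = 0.0143). The same block gave a difference between SCC6 and SCC1 for FOS (-0.39, adjusted p = 0.0418) and FOSL2 (-0.46, adjusted p = 0.0188), between SCC25 and SCC6 for FOSL2 (-0.47, adjusted p = 0.0143) and between SCC25 and SCC1 for ATF3 (-0.75, adjusted p = 0.0150). With the GC trend removed, BATF3 was no longer called over the lines (adjusted p = 0.0534), FOSB (adjusted p = 0.0191) and MAFF (adjusted p = 0.0181) were, and the difference of FOSL1 between SCC6 and SCC1 was lost (0.59, adjusted p = 0.0758). With flow cell as a covariate, the differences of FOSL2 (adjusted p = 0.165) and JUN (adjusted p = 0.104) between the lines were no longer called, those of FOS, FOSL1 and BATF3 were, and that of FOSB was (adjusted p = 0.0416). The change of MAFF in SCC25 and SCC1 was 0.0019 apart with a 95% interval of -0.42 to 0.42.

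The untreated lines themselves differed in 9 of the 10 members, all but JUN, where 87.4% of all genes differed between lines in the same test. Of the PBS libraries of days 1 to 5, only SCC1 day 5 and SCC6 day 1 shared a flow cell across lines. Line and flow cell therefore cannot be told apart in this comparison. FOSB was 2.45 (SE 0.16) higher on the log2 scale in SCC6 and 2.80 (SE 0.16) higher in SCC25 than in SCC1. ATF3 was highest in SCC6, 1.96 (SE 0.25) above SCC1, which in turn was 0.78 (SE 0.25) above SCC25. MAFF was lowest in SCC25, at -1.73 (SE 0.15) against SCC1, and did not differ beyond the spread between SCC6 and SCC1 (0.16, SE 0.15, adjusted p = 0.345). JUNB was 1.72 (SE 0.28) higher in SCC6 and 0.85 (SE 0.28) higher in SCC25 than in SCC1. Per length, the order of the mean PBS levels in SCC1 was FOSL1 with 113 ± 26.1 CPM per kb, MAFF with 38.9 ± 6.8, JUNB with 38.0 ± 9.2, JUN with 30.3 ± 4.9, ATF3 with 16.2 ± 6.0, FOSL2 with 9.60 ± 1.1, JUND with 7.67 ± 1.3, FOS with 3.98 ± 0.58, BATF3 with 1.22 ± 0.15 and FOSB with 0.292 ± 0.061 (SD, n = 5). MAFF, JUNB and JUN do not differ beyond their SDs in that order. In SCC6 JUNB led with 124 ± 70.9, followed within its spread by FOSL1 with 101 ± 9.7, and in SCC25 FOSL1 led with 168 ± 13.7, ahead of JUNB with 68.1 ± 18.1. The JUNB mean in SCC6 includes 250 CPM per kb on day 1, against 80.8 to 103 on days 2 to 5. FOSL1 held 88.4 to 102 there on days 2 to 5. The same day 1 library enters the JUNB difference of 1.72.

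The time courses were compared in 2 ways, by period and by slope. On days 1 to 3, 7 members were called in SCC1, 8 in SCC6 and 6 in SCC25, against 29.6%, 20.3% and 7.84% of all genes. On days 4 and 5 these were 5, 6 and 3 members, against 29.9%, 37.8% and 2.71%. FOSL1 was called in both periods of each line, at -2.58 and -2.89 (SCC1), -1.83 and -2.22 (SCC6), and with the smallest changes, -1.07 and -1.14, for SCC25. The difference between the periods was called by edgeR for 0 members and 0% of genes in every line. At an unadjusted p under 0.05 it was found for 0 members in SCC1 and SCC25 and for 2 in SCC6, FOSB and JUNB, and for 1458 genes in SCC1, 5626 in SCC6 and 599 in SCC25. DESeq2 called 31, 2735 and 3 genes and 0 members in each line. JUNB in SCC6 went from -0.93 (SE 0.41) on the first days to 0.83 (SE 0.50) on days 4 and 5, a difference of 1.76 (SE 0.65, adjusted p = 0.114). In SCC6 the late CTX libraries were alone on a flow cell, so period and flow cell cannot be told apart there. The SCC25 late count fell to 0 without PBS day 4, PBS day 5, CTX day 4 or CTX day 5 and rose to 5 without CTX day 3, its early count was 3 without PBS day 2, and the SCC6 late count was 3 without PBS day 4 or CTX day 4.

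By slope over days 1 to 5, FOSL2 rose with time under CTX in SCC1, by 0.16 (SE 0.04, adjusted p = 0.0402) on the log2 scale per day, the only member called there, with 3.91% of genes. No member was called in SCC1 with PBS (2.14% of genes) or in the difference of the slopes (0.524%). In SCC6, FOSL2 rose by 0.17 (SE 0.04, adjusted p = 0.0314) per day with PBS (13.9% of genes) and FOSB by 0.33 (SE 0.08, adjusted p = 0.0236) with CTX (18.3%), and the slope of JUNB differed between treatments by 0.80 (SE 0.22, adjusted p = 0.0262), where 25.5% of genes did. In SCC25 with PBS, ATF3 rose by 0.31 (SE 0.06, adjusted p = 0.0242) and FOSL2 by 0.12 (SE 0.02, adjusted p = 0.0362) per day (2.02% of genes), no member was called with CTX (0.979%), and the difference of the slopes was called for 0% of genes. In SCC6, PBS day 1 and CTX days 4 and 5 stood on flow cells apart from the other libraries of days 1 to 5. Day and flow cell therefore cannot be fully told apart in the SCC6 slopes, and no slope was fitted with flow cell as a covariate. Each of the slope calls above rests on single libraries. FOSL2 in SCC1 was not called without any of the 5 CTX libraries or without PBS day 4, and FOSL2 in SCC6 without PBS day 1 or day 5. FOSB in SCC6 was not called without 2a, 2b, CTX day 4 or CTX day 5, and JUNB was not called without PBS day 1 (0.40, adjusted p = 0.203) or 2a (0.66, adjusted p = 0.0965). In SCC25, ATF3 lost its call without PBS day 1, 2, 4 or 5 and FOSL2 without 8 of the 10 libraries, all but CTX days 2 and 3.

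Over the 30 libraries of days 1 to 5, with each line's mean subtracted from log2 CPM, FOSL1 and FOSL2 ran in opposite directions (Pearson r = -0.92) and FOS and FOSL1 in the same direction (r = 0.91), the strongest relations among the members. FOS and FOSL2 had r = -0.79 and FOSL1 and MAFF r = 0.86. FOSL2 and ATF3 had r = 0.76 and JUN and JUND r = 0.66. These are descriptions over libraries that share treatment, day and flow cell. Of the 8853 genes compared, all with a log2 CPM averaging 3 or more in each line, FOSL1 was followed most closely by DUSP6, the phosphatase that removes ERK's activating phosphates (r = 0.98), by PLK3, a polo-like kinase (0.97), and by PHLDA1 (0.97). The genes most like FOS were EGR1, an immediate early zinc finger factor (r = 0.95), DUSP5, a nuclear ERK phosphatase (0.95), and SPRY4, a feedback inhibitor of RAS signalling (0.93). Those most like JUNB were ANKRD13D, ZNF581 and MIER2 (r = 0.94, 0.94 and 0.93), whose transcripts hold 64.1%, 61.8% and 64.0% GC against 64.9% for JUNB, so that GC content is shared beside any pattern.

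Upstream of AP-1 stand EGFR, RAS, the kinases of the ERK, JNK and p38 cascades and the ternary complex factors. Of 21 genes of this list, 3 were higher and 5 lower in SCC1, 2 higher and 3 lower in SCC6, and 1 higher and 4 lower in SCC25, with medians of -0.06, 0.02 and -0.06 beside medians of 0.02, 0.00 and 0.01 over all genes. Beside this list and the next, 44.8% of all tested genes were called for SCC1, 30.1% for SCC6 and 18.3% for SCC25. EGFR itself was higher in SCC1 (0.58, adjusted p = 5.21e-05) and not called in SCC6 (0.09, adjusted p = 0.464) or SCC25 (0.09, adjusted p = 0.145). ELK3, a ternary complex factor that works with serum response factor, fell in each line, from 210 ± 32.4 to 72.8 ± 6.2 CPM in SCC1 (-1.52), 184 to 66.8 CPM in SCC6 (-1.48) and 93.9 to 64.0 CPM in SCC25 (-0.56). MAPK14, the p38 alpha kinase, was higher in each line, with log2 changes of 0.24 in SCC1, 0.41 in SCC6 and 0.20 in SCC25. The list of 13 other bZIP genes had fewer tested members, and 3 of 10 tested were higher and 2 lower in SCC1, 6 of 11 higher and 1 lower in SCC6, and 1 of 13 higher in SCC25. CREB5 fell in SCC1 (-1.22, adjusted p = 0.00227) and rose in SCC6 (1.64, adjusted p = 0.0187), NFE2L1 had the largest rise of this list in SCC1 (0.64), and MAF rose most in SCC6 (2.73, from 0.219 to 1.44 CPM), where BACH1 fell most (-0.66).

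In the list of ERK output and feedback genes, which was chosen with earlier results known, 11 of 14 were lower in SCC1, 12 in SCC6 and 11 in SCC25, where 22.1%, 14.6% and 9.5% of all tested genes were, and 0 were higher, with medians of -1.50, -1.21 and -0.80. PHLDA1 fell most in SCC1 (-3.66), DUSP5 in SCC6 (-2.72) and DUSP4 in SCC25 (-1.62). Of the other immediate early genes, 7 of 13 tested were lower and 2 higher in SCC1, 8 of 15 lower and 3 higher in SCC6, and 6 of 15 lower and 1 higher in SCC25. EGR1 fell most in each line, with log2 changes of -3.64 in SCC1, -4.35 in SCC6 and -2.44 in SCC25. BTG2, an antiproliferative gene, had the largest rise of the list in SCC1 (1.44) and SCC25 (0.33), and CTGF, a YAP target, in SCC6 (1.08). In the list of ATF4 and stress response genes, beside which ATF3 is often read, 6 of 11 were lower in SCC1, 0 changed in SCC6 and 2 were lower in SCC25, and none was higher in any of the lines. PPP1R15A fell most, by 0.90 in SCC1 and 0.54 in SCC25.

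Among 23 genes known as AP-1 targets in other settings, 16 of 21 tested were lower and 0 higher in SCC1, 15 of 23 lower and 3 higher in SCC6, and 14 of 23 lower and 1 higher in SCC25, with medians of -1.23, -1.17 and -0.36. Over all tested genes 22.1%, 14.6% and 9.5% were lower in these lines. Of the 21 listed genes tested in each line, 10 were lower in all 3, beside 3.91% of all genes tested in each line. MMP1, the interstitial collagenase whose promoter is a textbook AP-1 target, fell from 19.1 to 0.356 CPM in SCC1 (-5.72, SE 0.63, adjusted p = 1.73e-05) and from 1258 ± 794 to 9.84 ± 14.7 CPM in SCC6 (-7.04, SE 1.04, adjusted p = 0.000513), and in SCC25 it held 73.0 CPM with PBS and 117 CPM with CTX (0.68, adjusted p = 0.137). IL24 fell most in SCC25 (-2.34, from 9.29 to 1.85 CPM). MMP13, collagenase 3, was the gene called higher in SCC25 (0.52, adjusted p = 0.00751). The list holds textbook targets, and nothing here shows which of its genes the members control.

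**Figure D5:**
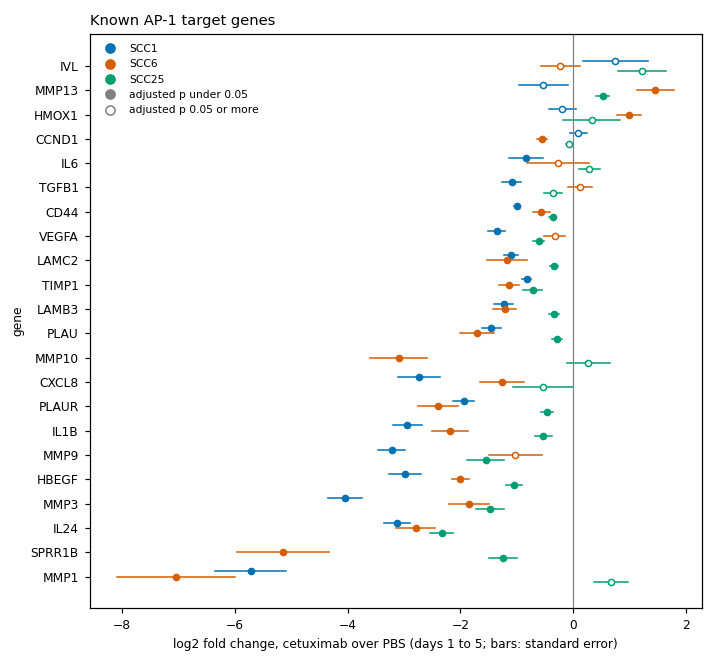
Log2 fold change (x axis), CTX over PBS, of genes known as AP-1 targets in each line, ordered by their mean over the lines, with bars of 1 standard error. Filled points have an adjusted p under 0.05. Most points lie left of 0, with MMP1 at -5.72 in SCC1 and -7.04 in SCC6, whereas MMP13 lies at 0.52 in SCC25.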

How the data were processed

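Libraries were made from poly(A) RNA with a stranded kit. The authors deposited 1 table of estimated counts for each gene symbol, made with Salmon and tximport and not normalised between libraries. The submitters' processing notes name Salmon 0.8.2 and GRCh37 (hg19), and the annotation is not given in the sources used here. Counts were rounded to whole numbers. Low counts were removed with filterByExpr and libraries scaled by TMM in edgeR 4.0.16 (R 4.3.3, limma 3.58.1). The test was edgeR's quasi-likelihood test, two-sided, and p-values were adjusted by Benjamini-Hochberg over all tested genes with a threshold of 0.05, and with DESeq2 1.42.0 as an alternative. Log2 CPM used a prior count of 0.5. Tables and plots were made in Python 3.11.15 with pandas 2.3.3, numpy 2.4.6 and matplotlib 3.10.9. The depth was 28508539 to 80727185 counts per library, and BATF3 had the fewest counts of the members, from 10 upwards.

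Within each line 5 CTX libraries were compared with 5 PBS libraries of days 1 to 5. One fit tested line by treatment terms, others the periods, the slopes and the untreated lines. Day 0 entered only an alternative. Libraries are separate by label, but p-values measure the spread between these samples, which includes the days. Days mark a shared collection. The deviations of a day's PBS and CTX libraries from their treatment means correlated over genes at 0.40, 0.38, 0.13, 0.20 and 0.12 in SCC1, 0.22, 0.56, 0.52, 0.51 and 0.59 in SCC25, and in SCC6 at 0.57 (2a) and 0.53 (2b) with PBS day 2 and 0.59, -0.19 and -0.00035 on days 3 to 5. No 2 libraries agreed within counting noise.

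Lengths, GC content and positions came from canonical transcripts of GENCODE on GRCh37, where 34694 symbols matched and a further 1359 did under older names; this may differ from the authors' annotation. Promoter sequences are RefSeq's on GRCh38.p14. Members, gene lists and the promoter motifs were chosen with earlier results of these data known. Named genes are the 10 members, EGFR, the called gene of each list and line with the largest rise and fall, and the 3 genes most like FOSL1, FOS and JUNB. Named from their values were, by contrast, CREB5 in SCC6, and PTPRC, CDH5 and KDR among markers. Alternatives were DESeq2, its size factors, total counts without TMM, no filter, a log2 change of at least 1, day as a replicate block, flow cell as a covariate, day 0 added, 2a or 2b as day 1, levels not divided by length, and each library left out. Removal of the GC trend (a spline with 5 degrees of freedom) was chosen after seeing the data. The fits were tested on simulated data. Some listed genes are counted in their lists but not reported here by name or plotted.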

Additional observations from a re-analysis of the deposited data

Results flagged for a closer look

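Of 60 groups of 5 libraries, formed by member, line and treatment on days 1 to 5, 3 held a library far from the other 4, and chance gives about 1 in 20 groups. JUNB and MAFF in SCC6 with PBS were far above the rest on day 1, at 457 and 147 CPM. Both values stand beside those of day 0 on the same flow cell (543 and 139 CPM). ATF3 in SCC1 with PBS was far above the rest on day 5, at 51.9 CPM, the only PBS library of that line on the flow cell of the CTX libraries.

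For 6 members the log2 change with CTX differed between a pair of lines by the test of the difference itself. Between SCC6 and SCC1 the differences were 0.74 for FOSL1, 1.37 for JUN, 1.01 for JUND and 1.28 for BATF3. SCC25 and SCC1 differed by 1.14 for FOS, 1.58 for FOSL1 and -0.95 for FOSL2. For SCC25 and SCC6 the values were 1.45 for FOS, 0.84 for FOSL1 and -0.85 for JUN. JUND differed between SCC6 and SCC1 only and not over the 3 lines at once (adjusted p = 0.0547). With the GC trend removed, the difference between SCC6 and SCC1 was 0.36 (adjusted p = 0.443) for JUND and 0.59 (adjusted p = 0.0758) for FOSL1. With flow cell as a covariate, FOSL1 still differed between SCC25 and SCC1 (1.33) and SCC25 and SCC6 (0.85), FOS between SCC25 and SCC6 (1.41) and BATF3 between SCC6 and SCC1 (1.62), and the other 6 differences were not called.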

How the results depend on the processing

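The change of a member in 1 line was set against each alternative fit, leaving aside the limit of a log2 change of at least 1. It kept its direction and its side of the threshold in 538 cases, lost the call in 15 and gained it in 5. It changed sign in 12, each for a member not called as reported. The sign changed with flow cell as a covariate for JUNB in SCC1 (0.25), BATF3 in SCC6 (0.32), JUN in SCC25 (0.015) and ATF3 in SCC25 (-0.44), and with day as a replicate block for JUNB (0.29) and BATF3 (0.077) in SCC6. With 1 library left out, JUND in SCC1 ranged from -0.034 to 0.18, JUNB in SCC6 from -0.40 to 0.34, BATF3 in SCC6 from -0.23 to 0.085 and JUN in SCC25 from -0.17 to 0.00029. The members called numbered 7 in SCC1, 8 in SCC6 and 6 in SCC25, and 4, 5 and 2 with a log2 change of at least 1. With the pairing of days as a block they were 7, 8 and 7, and 8 in SCC6 with either 2a or 2b as day 1, so that the block moved no other call within a line than JUND in SCC25. Leaving out libraries gave 7 to 7, 8 to 8 and 4 to 7 members, the lowest without PBS day 2 in SCC25, 5 to 6 for the difference between lines and 9 to 9 for untreated levels.

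Over all genes, 8061 were called in SCC1, 5238 in SCC6 and 3496 in SCC25. These were 4197, 5322 and 1417 with flow cell, 8479, 7961 and 5121 with the day block, 8110, 7142 and 5803 with the GC trend removed and 1572, 1687 and 300 at a log2 change of at least 1. The GC fits tested fewer genes, 15136, 14871 and 15989 against 17984, 17387 and 19101. Without 1 library SCC25 gave 2193 (CTX day 4), 2204 (PBS day 2) or 2221 (CTX day 5) at the lowest.

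For days 1 to 3 the members called without 1 library were 7 to 8 in SCC1, 6 to 8 in SCC6 and 3 to 6 in SCC25, and for days 4 and 5 they were 5 to 6, 3 to 9 and 0 to 5. The difference between periods stayed at 0 in these and was 2 in SCC6 with no filter. Slopes depended most on the setting. PBS slopes gave 1 member in SCC1 by DESeq2, no filter or day 0 added, against 0. In SCC6 they gave 2 by DESeq2, its size factors or 2a as day 1, 3 with no filter, 5 with day 0 and 0 with 2b as day 1, against 1. In SCC25 they gave 4 by DESeq2 and 1 with no filter, against 2. CTX slopes gave 3 (DESeq2), 4 (no filter), 3 (2a as day 1) and 0 (2b as day 1) in SCC6, against 1, and 1 by DESeq2 or no filter in SCC25, against 0. The difference of slopes in SCC6 gave 2 (no filter), 3 (day 0), 2 (2a) and 0 (2b), against 1. Without 1 PBS library, PBS slopes gave 0 to 1, 0 to 2 and 0 to 1 members in SCC1, SCC6 and SCC25, and without 1 CTX library, CTX slopes gave 0 to 0, 0 to 1 and 0 to 1. The difference of slopes without 1 library of either treatment gave 0 to 0, 0 to 2 and 0 to 1. The FOSL1 share of its family moved by -12.3 percentage points in SCC25, or -22.3 without division by length. The cause of these shifts was not tested.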

Other observations

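Day 0 had PBS libraries only. In SCC1 JUN stood at 39.9 CPM and JUND at 6.05 CPM on day 0, below all later PBS libraries of that line, which held 76.4 to 118 and 11.7 to 17.8 CPM. FOSL1 (109 CPM), FOS (5.86 CPM), JUNB (42.7 CPM), MAFF (64.6 CPM) and BATF3 (0.837 CPM) were also lowest on day 0 in SCC1. FOSB was highest there, at 2.04 CPM. In SCC6 FOSL1 (203 CPM), JUNB (543 CPM) and FOSB (7.0 CPM) were highest on day 0. In SCC25 day 0 was the lowest PBS library for FOSL2 (87.9 CPM), JUN (71.8 CPM), JUNB (72.5 CPM) and MAFF (19.2 CPM). These single libraries were not tested against the later days.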
